A study of Homo sapiens with 82 samples.

Results

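The regions described here are 470 stretches of the genome of HT29 cells. Each overlapped called sites of histone H3 lysine 27 acetylation (H3K27ac) after both 24 and 48 h of rosiglitazone. None overlapped a called H3K27ac peak in any library of cells given DMSO or GW3965. Wherever peaks of replicates 1 and 2 of a group shared at least 1 bp, they were joined into a single site. A 48 h rosiglitazone site was retained if it overlapped a 24 h rosiglitazone site and no single peak of the 6 H3K27ac libraries of DMSO and GW3965. The 470 sites made up 2.03% of the 23192 H3K27ac sites found with 48 h of rosiglitazone and 1.60% of the 29457 H3K27ac sites found in any of the 5 groups. They were chosen by the presence of called H3K27ac peaks and are called rosiglitazone-only sites, after that rule.

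HT29 is a line of human colorectal adenocarcinoma cells, and the study compared how agonists of the liver X receptors (LXRs) and of PPARG change its gene regulation. ChIP-seq for H3K27ac and for RNA polymerase II (RNAP2) was performed in cells given DMSO, the vehicle, and after 24 or 48 h of 10 μM GW3965, an LXR agonist, or 10 μM rosiglitazone, a PPARG agonist. PPARG was mapped after 2 and 48 h of 10 μM rosiglitazone, LXRB and LXRA after 2 and 48 h of 10 μM GW3965, and JunD in DMSO-treated cells, with 2 replicates in each group. All groups were the same line, DMSO libraries of ChIP-seq carry no hour in their labels, and LXRA was read with a FLAG antibody in cells that had been transfected with a FLAG-tagged LXRA transgene, selected with G418 and expanded, whereas PPARG and LXRB were the proteins of the cell itself. In the libraries used here, the receptors were thus read only with their own agonist and JunD only without drug. Nothing in the labels says that replicates came from separate cultures, so the p-values given here measure the spread between these libraries, which may be technical.

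H3K27ac is laid down by coactivator acetyltransferases at active promoters and enhancers, and it is read as a mark of regulatory DNA in use. PPARG is a nuclear receptor that binds DNA as a heterodimer with an RXR, recruits coactivators when an agonist such as rosiglitazone occupies it, and is known for genes of fatty acid storage and oxidation and, in colonic epithelium, for differentiation. LXRA and LXRB also pair with RXRs and govern genes of sterol efflux and fatty acid synthesis. JunD is a subunit of AP1, a dimeric factor that occupies many enhancers before nuclear receptors are activated. RNAP2 is found at promoters and, at lower levels, at active enhancers.

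The 32 RNA-seq libraries of the series, with 4 replicates each of DMSO, 10 μM GW3965, 10 μM rosiglitazone and 10 μM T0901317, another LXR agonist, at 24 and at 48 h, were used only to check the cells and the receptors. Colorectal epithelial markers summed to between 15697 and 20729 CPM (counts scaled to the library total) in every library. Most of that sum was KRT8 (7574 to 10757 CPM) and KRT18 (5803 to 7972 CPM), and EPCAM lay between 244 and 380 CPM. Intestinal markers of the same list varied. CDX1 was low, between 0.641 and 4.04 CPM, as were CDH17, between 3.56 and 13.1, and CDX2, between 6.01 and 19.8. LGALS4 lay between 633 and 1256, KRT20 between 250 and 1315 and VIL1 between 46.5 and 258 CPM. The 7 markers of blood cells, fibroblasts and endothelium summed to between 10.9 and 24.6 CPM. Of these 7, PTPRC, CD3E, COL1A2, PDGFRB and CDH5 did not exceed 0.231 CPM in any library, whereas CD68 reached 16.5 CPM and COL1A1 8.66 CPM. RNA of the receptor genes was present throughout, with PPARG between 29.2 and 86.5 CPM, NR1H3 (LXRA) between 70.8 and 256 CPM, NR1H2 (LXRB) between 45.9 and 70.0 CPM, RXRA between 171 and 327 CPM and JUND between 89.8 and 351 CPM. RXRG, the third gene for an RXR partner, had no counts. H3K27ac libraries held between 23015 and 31824 peaks and RNAP2 libraries between 27249 and 35934, and the numbers of reads behind the peaks were not used here.

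Rosiglitazone-only sites were weak compared with all 48 h rosiglitazone sites and narrow compared with H3K27ac sites shared by all 5 groups. The score of a peak is, by the convention of the peak caller, minus 10 times the log10 of its p, and 100 was the lowest score deposited in any library. At the sites the median score of the strongest H3K27ac peak was 249 and 219 in the 24 h rosiglitazone replicates and 267 and 184 in the 48 h replicates. Over all 48 h rosiglitazone sites the corresponding medians were 489, 483, 484 and 470. The sites ran from 327 to 8744 bp with a median width of 1616 bp, against 2910 bp for 14004 H3K27ac sites shared by all 5 groups. Other gained sites, described below, were also narrow, with medians of 1865 bp for GW3965 only and 2054 bp for both drugs. The peaks behind these scores chose the sites, so the values are given as a description.

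The edge of the rule was not sharp. Of 20726 sites found with rosiglitazone at both 24 and 48 h, 470 had no peak in the 6 DMSO and GW3965 libraries, 446 had a peak in 1 of them and 13913 had a peak in all 6. In the 446 sites just outside the rule, the single DMSO or GW3965 peak had a median score of 139 and reached 1264, and in 159 of them it came from replicate 2 of 48 h GW3965. Just inside it, the lowest rosiglitazone score of a site ranged from 100 to 793 with a median of 140. If only sites of both replicates of DMSO or GW3965 were used for exclusion, 1899 sites would remain, and if rosiglitazone peaks had to score at least 200, 107 would remain. With peaks of a single 48 h rosiglitazone replicate in place of sites of both, the count was 737 without replicate 1 and 857 without replicate 2. A site without a called peak in DMSO is therefore one whose acetylation did not pass the peak caller, not one shown to lack acetylation.

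Few of the sites lay near one another, and most were some distance from acetylation found without rosiglitazone. The nearest H3K27ac peak of a DMSO or GW3965 library lay at a median distance of 13.7 kb, with quartiles of 2.56 and 39.1 kb, and 75 sites (16.0%) lay within 1 kb of such a peak. At the other end, 416 sites had one within 100 kb. The nearest other rosiglitazone-only site was 1429 kb away in the median, and 38 sites formed 19 pairs less than 20 kb apart, with no group of 3 or more. Chromosome 2 held 55 of the sites (11.7%, against 7.83% of all 48 h rosiglitazone sites) and chromosome 19, which is rich in genes, held 4 (0.851%, against 4.43%). Distances to genes were not analysed here, since no gene positions in hg19, the build of the peaks, were used.

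PPARG, the receptor that rosiglitazone binds, was found at 268 of the 470 sites (57.0%, Wilson 95% interval 52.5% to 61.4%) at either 2 or 48 h. At 2 h, 252 of the 470 sites overlapped a PPARG site (53.6%, 49.1% to 58.1%), and at 48 h 232 did (49.4%, 44.9% to 53.9%). Intervals of shares cover counting error only. By library, 65.3% and 56.0% of the sites held a PPARG peak at 2 h, and 60.4% and 49.4% did at 48 h. Replicate 1 gave the higher share at both times, and it also had more peaks in all than replicate 2.

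The PPARG share was close to that of 233 H3K27ac sites gained with both drugs, where 52.4% had a PPARG site at 2 h and 43.8% at 48 h. It was 8.59% and 4.69% at 128 sites gained with GW3965 only, found by the mirrored rule, and 30.1% and 20.0% at H3K27ac sites of all 5 groups. The interval for sites of GW3965 only ran from 4.87% to 14.7% at 2 h, below that of the rosiglitazone-only sites. Because sites of all 5 groups were wider, a fixed window of 1 kb around each centre was also read, and 53.2% and 49.1% of rosiglitazone-only windows had a PPARG site against 24.9% and 16.6% of windows at sites of all 5 groups. These shares were not tested against each other, since PPARG was mapped under 1 treatment and there is no contrast over libraries.

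**Figure D1:**
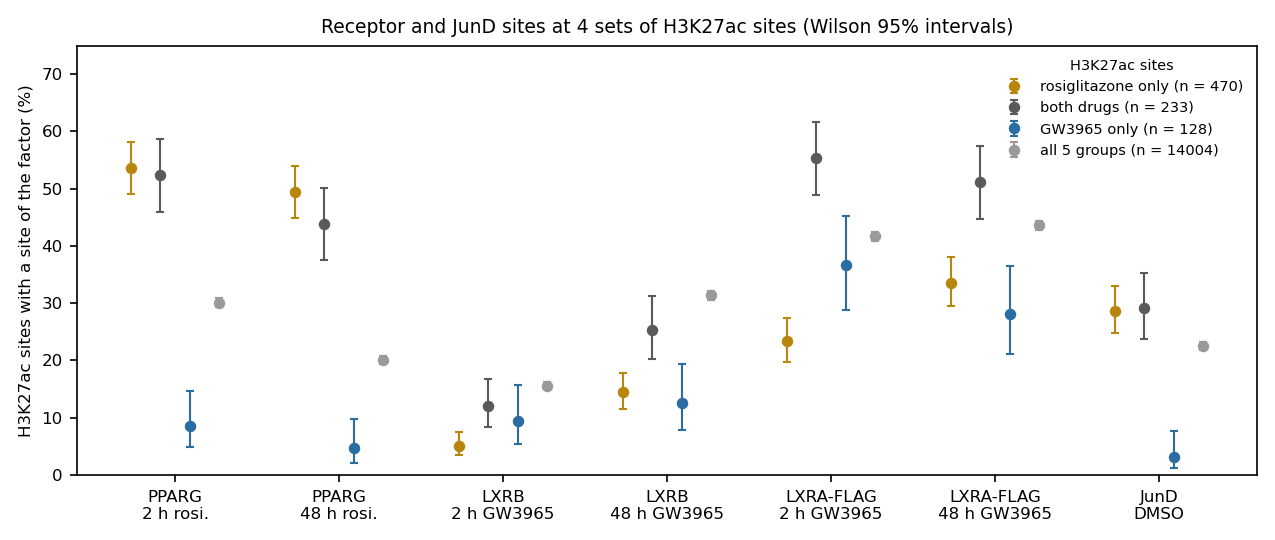
The vertical axis gives the percent of H3K27ac sites that overlap a site of the factor named on the horizontal axis, for 4 sets of H3K27ac sites, with points for shares and bars for Wilson 95% intervals. The rosiglitazone-only sites lie at 53.6% and 49.4% for PPARG, near the sites gained with both drugs, and have the lowest share for LXRB at 2 h, 5.11%.

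PPARG was present at both times in 216 of the sites (46.0%), at 2 h alone in 36 and at 48 h alone in 16. Of the 268 with PPARG at either time, 258 held a single PPARG site and 10 held 2. Most PPARG binding of 2 h at these regions was found again later: of 260 PPARG sites of 2 h within rosiglitazone-only sites, 223 overlapped one of 48 h (85.8%, 81.0% to 89.5%). The share found again was 80.5% at sites gained with both drugs, 61.7% at sites of all 5 groups and 55.6% over all 14249 PPARG sites of 2 h. The 48 h H3K27ac used by the rule and the 48 h PPARG were read at the same time of treatment, and the difference between these shares was not tested.

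PPARG peaks within the sites scored above the median of their libraries. Their median score was 611 and 509 in the 2 h replicates and 585 and 427 in the 48 h replicates, which fell between the 71.4th and the 77.0th percentile of all PPARG peaks in the same library. In H3K27ac sites of all 5 groups the medians were 339, 336, 327 and 281. The PPARG sites lay near the middle of the acetylated span, at a median of 199 bp from its centre at 2 h and 180 bp at 48 h, and 84.7% and 87.1% of them lay within 500 bp. In the 500 bp on either side of the centre there were 22.8 and 24.3 PPARG site centres of 2 h per 100 rosiglitazone-only sites, against 8.70 and 8.49 per 100 sites of all 5 groups. Sites gained with both drugs were close to the former, at 21.0 and 22.7 per 100.

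**Figure D2:**
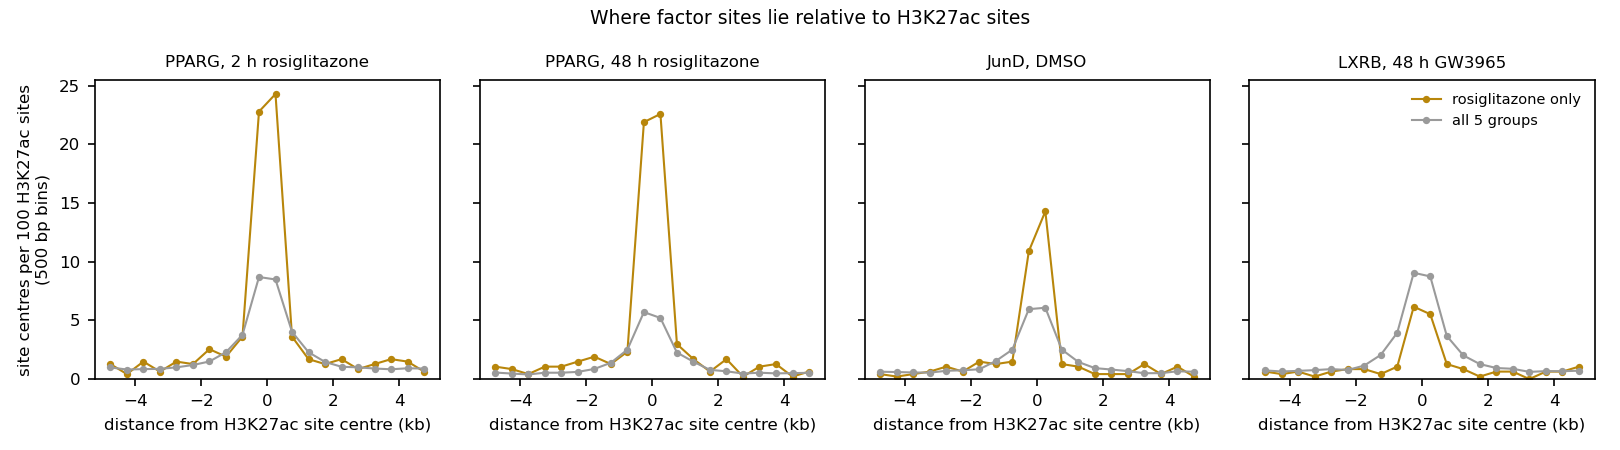
Each panel counts centres of factor sites in 500 bp bins by distance in kb from the centre of H3K27ac sites, per 100 sites, for rosiglitazone-only sites and sites of all 5 groups. For PPARG the rosiglitazone-only line peaks at 24.3 per 100 sites at 2 h and is highest within 500 bp of the centre, whereas for LXRB it stays below the line for sites of all 5 groups at the centre.

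The remaining 202 sites (43.0%) had no PPARG site at either time. In 65 of them at least 1 PPARG library held a peak although the replicates formed no site, and 137 (29.1% of all 470) held no PPARG peak in any of the 4 libraries. The nearest PPARG site of any time was at a median of 24.8 kb from these 202, with 52 closer than 5 kb and 95 (47.0%) closer than 20 kb. Sites without PPARG were narrower, with a median of 1347 bp against 1838 bp for those with PPARG. When the sites were ranked by their lowest rosiglitazone H3K27ac score, PPARG was found at 44.1% of the 118 lowest and 75.4% of the 118 highest, and by width it was found at 34.7% of the 118 narrowest and 75.4% of the 118 widest.

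LXRB, measured with GW3965, was rare at rosiglitazone-only sites. It was found at 24 of them at 2 h (5.11%, 3.46% to 7.49%) and at 68 at 48 h (14.5%, 11.6% to 17.9%), with single libraries at 8.72% and 7.02% at 2 h and 20.4% and 18.3% at 48 h. Without replicate 2, the 2 h share was thus 8.72%. H3K27ac sites of all 5 groups had LXRB at 15.6% and 31.4%, and sites gained with both drugs at 12.0% and 25.3%. Sites gained with GW3965 only had it at 9.38% and 12.5%, and the 48 h interval there, from 7.84% to 19.3%, includes the value of the rosiglitazone-only sites. When peaks had to score at least 200, 1.28% and 4.68% of the sites had LXRB. That threshold lies above the median score of all LXRB peaks in every library (162 to 171). The share of other H3K27ac sites at that threshold was not counted.

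LXRB where present went with the other factors. Of the 73 rosiglitazone-only sites with LXRB at either time, 65 also had PPARG (89.0%, 79.8% to 94.3%) and 56 had JunD (76.7%, 65.8% to 84.9%). Among the 202 sites without PPARG, 8 had LXRB. At 48 h alone, LXRB was at 22.4% of rosiglitazone-only sites with PPARG and 3.96% of those without. Other sets split in the same direction, with 40.3% and 8.26% at sites gained with both drugs and 64.1% and 16.9% at sites of all 5 groups. Sites gained with GW3965 only had 41.7% and 9.48%. JunD at sites with LXRB was not counted in the other sets. The median LXRB score in the sites was 149 in each 2 h library and 163 and 162 at 48 h, below the medians of all LXRB peaks, which lay between 162 and 171.

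LXRA-FLAG was found at 110 sites at 2 h (23.4%, 19.8% to 27.4%) and at 158 at 48 h (33.6%, 29.5% to 38.0%). The replicates differed, with 33.0% and 23.4% at 2 h and 34.3% and 51.3% at 48 h. Without replicate 1 the 48 h share was thus 51.3%. Sites of all 5 groups had LXRA-FLAG at 41.7% and 43.6% and sites gained with both drugs at 55.4% and 51.1%. Sites gained with GW3965 only had it at 36.7% at 2 h and 28.1% at 48 h, the latter below the rosiglitazone-only sites. As LXRA came from a transgene, its level is not that of LXRB or PPARG, and the number of LXRA-FLAG sites, 18389 at 2 h and 17326 at 48 h, was above that of LXRB, 3881 and 9218.

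JunD, mapped without drug, was already present at 135 of the rosiglitazone-only sites (28.7%, 24.8% to 33.0%), with 31.7% and 38.3% in single libraries. The share at sites gained with both drugs was 29.2% and at sites of all 5 groups 22.5%. At sites gained with GW3965 only it was 4 of 128 (3.12%, 1.22% to 7.76%), the lowest of the 4 sets. In windows of 1 kb the shares were 27.7% for rosiglitazone-only sites and 19.3% for sites of all 5 groups. The median JunD score in the sites was 180 and 211, near the 183 and 191 of all JunD peaks in the same libraries, and 12.6% of the sites had JunD if peaks had to score at least 200. JunD site centres lay at a median of 219 bp from the centre of the acetylated span.

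JunD was present at 102 of the 268 sites with PPARG (38.1%, 32.5% to 44.0%) and at 33 of the 202 without (16.3%, 11.9% to 22.1%). The same split was 38.7% and 18.3% at sites gained with both drugs and 50.4% and 10.1% at sites of all 5 groups. Of the 36 sites with PPARG at 2 h alone, 20 had JunD (55.6%), against 77 of the 216 with PPARG at both times (35.6%). Sites gained with both drugs had the same order, with JunD at 12 of 22 (54.5%) and 36 of 100. The order was reversed at sites gained with GW3965 only, with 0 of 6 and 2 of 5. It was also reversed at sites of all 5 groups, where the shares were 38.2% and 57.7%. In all, 88 rosiglitazone-only sites had PPARG, an LXR and JunD, and 113 had PPARG without an LXR or JunD. A further 53 had PPARG and an LXR without JunD, and 14 had PPARG and JunD without an LXR. Without PPARG, 15 sites had an LXR and JunD, 34 an LXR alone and 18 JunD alone, and 135 had none of these factors. The factors were mapped in separate libraries under different treatments, so presence at the same site does not show presence at the same time. Sites with PPARG were wider, and the part of width in these counts was not tested.

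RNAP2 did not enter the rule and was measured in all 5 groups, so that it allows a comparison over libraries. With DMSO, 41.3% and 37.0% of the rosiglitazone-only sites held an RNAP2 peak. With GW3965 the shares were 19.4% and 26.6% at 24 h and 17.2% and 12.6% at 48 h. With rosiglitazone they were 62.3% and 69.1% at 24 h and 40.0% and 55.5% at 48 h. All GW3965 libraries lay below all DMSO libraries and all rosiglitazone libraries, while replicate 1 of 48 h rosiglitazone lay below replicate 1 of DMSO.

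The 4 rosiglitazone libraries averaged 56.8% ± 12.5 (SD, n = 4) and the 6 other libraries 25.7% ± 11.5 (SD, n = 6). The difference of 31.1 percentage points had p = 0.0143 in a two-sided exact permutation test over libraries, or 0.0286 adjusted over the 2 tests of RNAP2. Against the 4 GW3965 libraries alone, at 18.9% ± 5.84 (SD, n = 4), the difference was 37.8 points (exact permutation p = 0.0286, the smallest that 4 against 4 allows). Without replicate 1 of 24 h GW3965, or without either replicate of 48 h GW3965, that exact permutation p was 0.0571. Against the 2 DMSO libraries alone it was 17.6 points (exact permutation p = 0.200, where 0.0667 is the smallest possible), so a difference from DMSO was not shown. The RNAP2 and H3K27ac libraries of rosiglitazone were called against the same input library at each time, while PPARG had inputs of its own. The part of the shared input in the RNAP2 result was not tested, nor was that of choosing sites by acetylation with rosiglitazone.

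**Figure D3:**
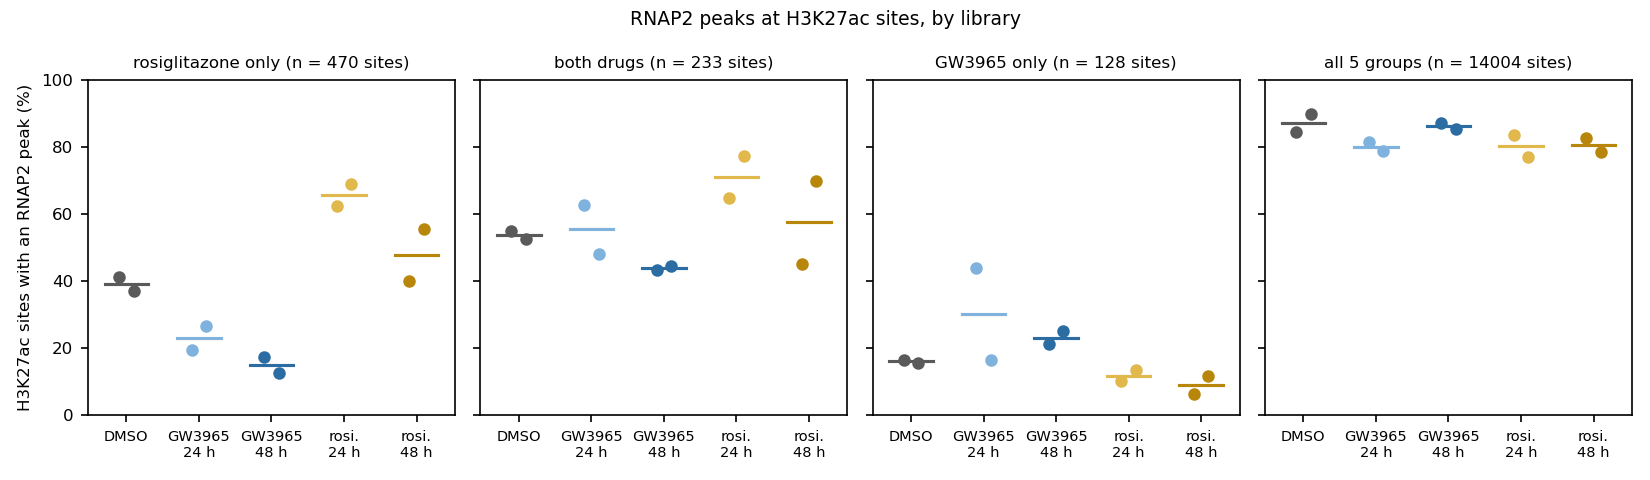
Each point is 1 RNAP2 library and each horizontal line the mean of its 2 replicates, and the vertical axis gives the percent of H3K27ac sites with an RNAP2 peak, in 4 panels for 4 sets of sites. At rosiglitazone-only sites the 24 h rosiglitazone libraries are highest, at 62.3% and 69.1%, and the GW3965 libraries lowest, whereas at sites of all 5 groups every library lies between 77.1% and 89.9%.

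Sites of all 5 groups and sites gained with GW3965 only did not share this order. At sites gained with both drugs the mean RNAP2 share was 53.6% with DMSO, 49.7% with GW3965 and 64.3% with rosiglitazone, and single libraries overlapped between the drugs. At the sites of all 5 groups the mean RNAP2 share was 87.2% with DMSO, 83.2% with GW3965 and 80.5% with rosiglitazone. At sites gained with GW3965 only it was 16.4% and 15.6% with DMSO, 43.8% and 16.4% with 24 h GW3965, 21.1% and 25.0% with 48 h GW3965, 10.2% and 13.3% with 24 h rosiglitazone, and 6.25% and 11.7% with 48 h rosiglitazone. The share at rosiglitazone-only sites less the share at GW3965-only sites of the same library averaged 46.4 ± 9.83 points in the rosiglitazone libraries (SD, n = 4) and -7.63 ± 14.6 points in the GW3965 libraries (SD, n = 4). The difference of 54.0 points had p = 0.0286 in the two-sided exact permutation test, the smallest possible, and also 0.0286 after adjustment. It was 35.7 points if RNAP2 peaks had to score at least 200, with the same exact permutation p. With permutations kept within the replicate number it was p = 0.0556, again the smallest possible. Both sets of sites were chosen by acetylation with the drug in question, and RNAP2 was not used to choose either. The part of that choice in the RNAP2 difference was not tested.

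RNAP2 was more frequent at 24 h than at 48 h of rosiglitazone. A site of both RNAP2 replicates was present at 278 rosiglitazone-only sites at 24 h (59.1%) and at 172 at 48 h (36.6%). It was present at both times in 163 sites, at 24 h alone in 115 and at 48 h alone in 9, and 183 sites had none. Sites gained with both drugs showed a like fall, from 64.4% at 24 h to 42.9% at 48 h of rosiglitazone. The shares were 7.81% and 5.47% at sites gained with GW3965 only and 72.2% and 71.4% at sites of all 5 groups. With 2 replicates at each time, the exact permutation test of 24 h against 48 h cannot reach 0.05, and the difference was not tested. The widest RNAP2 peaks, with a median of 1522 bp, were those of replicate 2 of 24 h rosiglitazone, and the other replicate of that group, with a median of 965 bp, gave the share of 62.3%.

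RNAP2 was also found at part of the sites in cells without rosiglitazone. A DMSO site of RNAP2 was found at 147 of the 470 (31.3%), of which 139 also had one with rosiglitazone at 24 or 48 h and 68 had none with GW3965 at either time. The DMSO share was 46.4% at sites gained with both drugs, 12.5% at sites gained with GW3965 only and 83.0% at sites of all 5 groups. An RNAP2 site that appeared with rosiglitazone at 24 or 48 h, and no RNAP2 peak in any DMSO or GW3965 library, was found at 73 sites (15.5%), and one that appeared at both times at 21. In the opposite direction, 2 sites had an RNAP2 peak in a DMSO or GW3965 library and in no rosiglitazone library. No RNAP2 peak at all was found at 105 sites (22.3%). The 21 sites with such RNAP2 at both times were 18 of the 268 with PPARG (6.72%) and 3 of the 202 without (1.49%). The same split was 1.61% and 0.917% at sites gained with both drugs and 0.0698% and 0.0412% at sites of all 5 groups. At sites gained with GW3965 only it was 0% and 0.862%. Apart from these and the DMSO share, the patterns are given for rosiglitazone-only sites alone, with no share over other sites beside them.

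Sites with PPARG had RNAP2 more often than sites without, in every library. With 24 h of rosiglitazone, RNAP2 peaks were present at 78.7% and 81.7% of the 268 sites with PPARG and at 40.6% and 52.5% of the 202 without. In both classes all GW3965 libraries lay below both DMSO libraries. With PPARG the shares were 50.7% and 45.1% in DMSO and between 17.9% and 35.8% with GW3965, and without PPARG they were 28.7% and 26.2% in DMSO and between 5.45% and 14.4% with GW3965. At 48 h of rosiglitazone they were 55.2% and 71.3% with PPARG and 19.8% and 34.7% without. Among sites without PPARG, replicate 1 of 48 h thus lay below both DMSO libraries. By sites of both RNAP2 replicates, 74.6% with PPARG and 38.6% without had RNAP2 at 24 h of rosiglitazone, and at H3K27ac sites of all 5 groups the same direction was seen, with 86.8% and 65.7%. In DMSO these shares were 39.9% and 19.8% at rosiglitazone-only sites and 92.8% and 78.7% at sites of all 5 groups.

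Sites with JunD in DMSO were mostly sites with RNAP2 in DMSO. Of the 135 sites with JunD, 77.0% and 74.1% had an RNAP2 peak in DMSO, between 29.6% and 60.0% with GW3965, 94.1% and 96.3% with 24 h of rosiglitazone and 70.4% and 86.7% with 48 h. Of the 335 sites without JunD, 26.9% and 22.1% had one in DMSO, between 5.67% and 13.1% with GW3965, 49.6% and 58.2% with 24 h of rosiglitazone and 27.8% and 43.0% with 48 h. Of all sites shared by the 5 groups, with or without JunD, 84.5% and 89.9% had an RNAP2 peak in DMSO. RNAP2 was not split by JunD in the other sets. The classes of rosiglitazone-only sites share their libraries and differ in width and score, and they were not tested against each other.

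**Figure D4:**
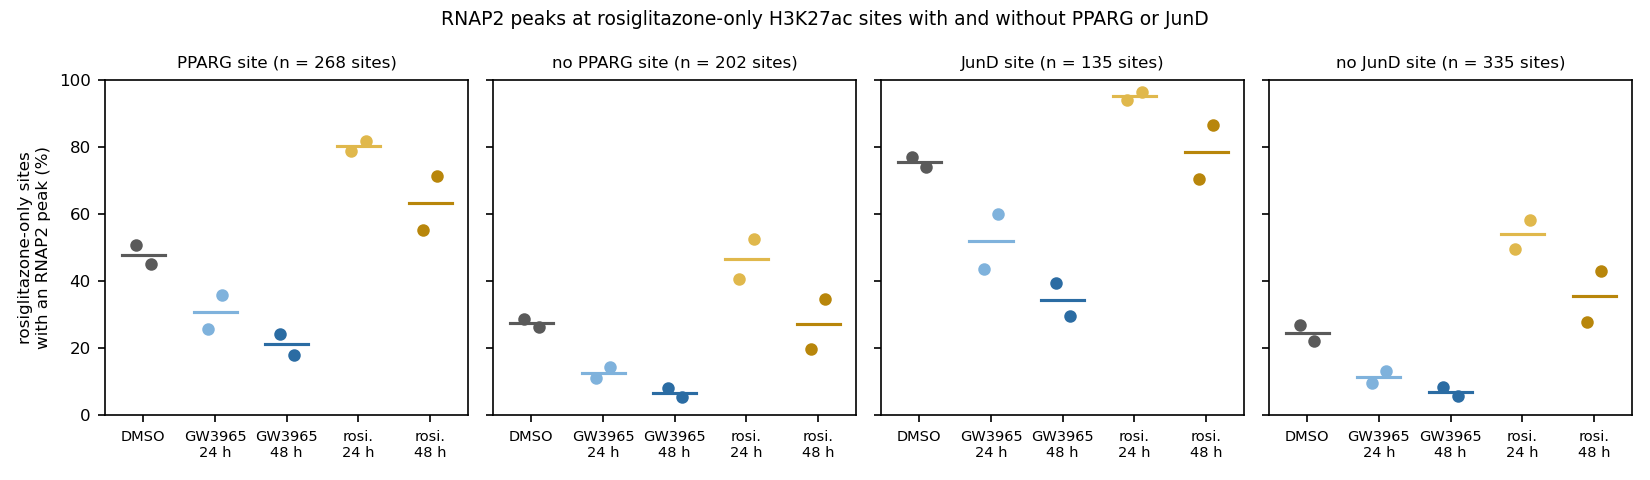
The vertical axis gives the percent of rosiglitazone-only sites with an RNAP2 peak, each point 1 library and each line the mean of 2 replicates, with panels for sites with and without PPARG (268 and 202) and with and without JunD (135 and 335). The GW3965 libraries lie lowest in every panel, and sites with JunD stand highest in DMSO, at 77.0% and 74.1%.

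Single regions show the range of combinations. Positions are in hg19, and the regions are the 8 with the highest minimum of the 4 rosiglitazone H3K27ac scores and the 8 with the highest minimum of the 4 PPARG scores among sites with PPARG at both times. Of the first 8, 6 had PPARG at both times and 3 had JunD, of the second 8 also 3 had JunD, and 1 region was in both lists.

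The region with the highest minimum of the 4 H3K27ac scores was chr4:130278471-130281279, with scores of 1013 and 793 at 24 h and 875 and 886 at 48 h. PPARG there scored 2185 and 1396 at 2 h and 1543 and 820 at 48 h, JunD scored 302 and 348, and LXRA-FLAG was in all 4 libraries while LXRB was in none. RNAP2 scored 148 and 221 in DMSO, 262 and 444 with 24 h and 103 and 176 with 48 h of rosiglitazone, and of the 4 GW3965 libraries only replicate 1 of 48 h had a peak, of 123. The nearest DMSO or GW3965 acetylation was 260 kb away, and this region held every factor except LXRB.

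At chr6:141859600-141861776, the region in both lists, PPARG scored 3100 and 3100 at 2 h and 2642 and 1788 at 48 h. H3K27ac scored between 648 and 882 in the 4 rosiglitazone libraries, and RNAP2 scored 869 and 871 at 24 h of rosiglitazone against 249 and 132 in DMSO. Another 2 of the named regions, both on chromosome 2, differed. In chr2:145112984-145117871, 4888 bp wide, PPARG scored between 980 and 2483, LXRB, LXRA-FLAG and JunD were present in each of their libraries, and RNAP2 scored 666 and 801 with 24 h of rosiglitazone against 344 and 415 in DMSO. In chr2:144986710-144989166, H3K27ac was as strong, with scores between 702 and 1198, yet no PPARG, LXR or JunD library held a peak, and RNAP2 scored 176 and 222 with 24 h of rosiglitazone.

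Some of the strongest PPARG peaks lay in sites whose H3K27ac scores were below the medians of all 48 h rosiglitazone sites (489, 483, 484 and 470). The region with the highest minimum PPARG score, chr19:19206548-19209574, had PPARG at 3100, 3100, 3100 and 2525. H3K27ac there scored 139 and 176 at 24 h, below the medians of the rosiglitazone-only sites (249 and 219). At 48 h it scored 298 and 241, above their medians (267 and 184). At chr21:44375277-44376367 PPARG scored between 2142 and 3100 and H3K27ac between 112 and 221, with RNAP2 in all 10 libraries, at 405 and 640 in DMSO and 971 and 1177 with 24 h of rosiglitazone. The region chr10:54078880-54080667 had H3K27ac between 238 and 467, JunD at 1579 and 1571 and LXRA-FLAG between 1618 and 2887. RNAP2 there scored 850 and 1144 in DMSO, and the region lay 0.176 kb from an H3K27ac peak of DMSO or GW3965. By contrast, chr15:39436252-39440511 had H3K27ac between 705 and 986 and PPARG between 1203 and 1911, with no LXR or JunD peak and RNAP2 in a single library, at 154. Scores were not scaled between libraries, so they rank peaks within a library and are not amounts of protein.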

How the data were processed

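HT29 ChIP-seq libraries of H3K27ac, RNAP2, PPARG, LXRB, LXRA-FLAG and JunD (34 with peaks, 2 replicates per group) were used out of 82 samples listed. Per the submitters' processing notes, reads were aligned with Bowtie to hg19, and the authors ran MACS on each replicate with an input as control (versions not given in the sources used here). The deposited score of a peak is unscaled and starts at 100, and replicates were not pooled. For RNA-seq, the notes name TopHat and Cufflinks, and the authors deposited whole-number counts per gene, which were divided here by library totals (21044798 to 51332656) to give CPM. H3K36me3 and input libraries were not used.

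The sites, the sets they are compared with and the tests were chosen with earlier results of these data known. Intervals were joined in Python 3.11.15 (pandas 2.3.3, numpy 2.4.6, scipy 1.17.1, figures with matplotlib 3.10.9) by code tested on simulated data. Sites gained with both drugs were 48 h rosiglitazone sites that overlapped sites of 24 h rosiglitazone and of both GW3965 times and no DMSO peak. Shares have Wilson 95% intervals, and RNAP2 was tested with exact permutations of libraries, pooling the times of a drug because 2 against 2 libraries cannot reach p under 0.05 in such a test. Named regions give the highest peak score of each library. Replicates of a group shared at most 2 identical peaks. Read depth was not used, so weak sites depend on each library's unknown depth. RNA of nearby genes and sequence motifs had been planned and were not analysed here, because no hg19 gene positions or genome were used.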

Additional observations from a re-analysis of the deposited data

Results flagged for a closer look

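The drugs differed in opposite directions at the sites of each drug. At rosiglitazone-only sites the RNAP2 share was 37.8 percentage points higher in the 4 rosiglitazone libraries than in the 4 GW3965 libraries, with all 4 above all 4 (two-sided exact permutation p = 0.0286). At sites gained with GW3965 only the same difference was -16.2 points, with all 4 rosiglitazone libraries below all 4 GW3965 libraries (two-sided exact permutation p = 0.0286). Both p-values are the smallest that 4 against 4 libraries allow, and the test of the difference between the sets of sites is given with the RNAP2 results. Each set was chosen by H3K27ac peaks with its own drug and none with the other drug. The part of that choice in the RNAP2 differences was not tested. Inputs labelled for both H3K27ac and RNAP2 lie behind both differences, and their part was not tested. Leaving out each library in turn, an alternative chosen after seeing the data, the first difference ranged from 33.7 to 43.4 points, and its exact permutation p was 0.0571 without replicate 1 of 24 h GW3965 or either replicate of 48 h GW3965 and 0.0286 otherwise. The second ranged from -10.5 to -19.6 points, and its exact permutation p was 0.0571 without any 1 of the 4 rosiglitazone libraries and 0.0286 otherwise. Without replicate 1 of 24 h GW3965, whose share at GW3965-only sites was 43.8% against 16.4% in its replicate, the second difference was -10.5 points and the difference between the sets was 48.4 points in place of 54.0.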

How the results depend on the processing

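The number of sites moved most with the rule: 107 with rosiglitazone peaks of at least 200 and 1899 when DMSO and GW3965 sites of both replicates, not single peaks, were excluded. It was 476 with an overlap of at least 50% of the shorter interval and 395 with a distance of at least 1 kb from DMSO and GW3965 peaks. Leaving out 1 H3K27ac library at a time gave 480 to 857 sites.

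With a peak of either replicate the share of sites with a factor was 67.9% and 60.6% for PPARG at 2 and 48 h, 10.9% and 24.3% for LXRB, 33.4% and 52.6% for LXRA-FLAG and 41.3% for JunD. With peaks of at least 200 these shares were 43.6% and 37.7%, 1.28% and 4.68%, 11.5% and 16.6%, and 12.6%. With 1 library of a factor alone they ranged from 56.0% to 65.3% and 49.4% to 60.4% for PPARG, 7.02% to 8.72% and 18.3% to 20.4% for LXRB, 23.4% to 33.0% and 34.3% to 51.3% for LXRA-FLAG and 31.7% to 38.3% for JunD. In the 107 sites of stronger H3K27ac, PPARG was at 72.0% and 69.2%, LXRB at 48 h at 22.4%, LXRA-FLAG at 48 h at 38.3% and JunD at 42.1%. In the sites at least 5 kb from DMSO and GW3965 peaks, a choice made after seeing the data, PPARG was at 59.2% and 55.4%. Other shares moved by less than their intervals.

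The RNAP2 difference between rosiglitazone and the other libraries ranged from 27 to 36.7 percentage points without 1 library at a time, with exact permutation p from 0.00794 to 0.0357. It was 17.6 points (p = 0.200) against DMSO alone, 42.8 points within 24 h and 32.9 points within 48 h, and the exact permutation p of 0.333 within a time is the smallest that 2 against 2 libraries allow, as is 0.0667 against DMSO, so these could not pass 0.05. The difference less that at GW3965-only sites, for which all settings were added after seeing the data, ranged from 48.4 to 60.0 points without 1 library at a time, and was 35.7 points with RNAP2 peaks of at least 200, 51.7 points in windows of 1 kb, 52.1 points by peak centre and 52.4 points with an overlap of at least 50%, each with exact permutation p = 0.0286. Replicate numbers give no pairing by the labels: replicate 1 had the higher RNAP2 share in 2 of 5 groups. With a replicate block the first difference of 31.1 points had exact permutation p = 0.0300 and the second, of 54.0 points, p = 0.0556, the smallest that the block allows. Alternatives for RNA of nearby genes were not run, because no gene positions in hg19 were used.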
